A study of Homo sapiens with 16 samples.

Results

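HepG2 cells that carried an adenovirus expressing GPI-phospholipase D (GPI-PLD) were compared with HepG2 cells that carried a LacZ adenovirus, after 6 h of culture. The comparison covered 8 of the 16 arrays of the series, 4 for each virus, which were picked by the virus and the culture time in their descriptions. The other 8 arrays held the same viruses at 12 h. HepG2 is an established human hepatoma line with many features of liver cells. Cells of both groups were transduced, so the controls also carried a virus, with the bacterial enzyme beta-galactosidase in place of the phospholipase. The labelled material for each array was made from 10 µg of total RNA. No untransduced cells were analysed here, and the labels do not state the promoter, the dose of virus or the share of cells transduced.

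GPI-PLD is a secreted enzyme, made largely by the liver and carried in plasma with high-density lipoprotein. It cleaves the glycosylphosphatidylinositol (GPI) anchor that holds a class of proteins on the outer cell surface, which frees the protein and leaves phosphatidic acid in the membrane. Phosphatidic acid is a precursor of diacylglycerol, an activator of protein kinase C and the direct substrate of the last step of triglyceride synthesis. The gene lists below were therefore centred on lipid metabolism, GPI anchors, phospholipid signalling and immediate early genes.

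The arrays measured MAS5 signals, a linear brightness scaled by array to a common mean, with array medians of 304.5 to 344.7 at 6 h. Correlations between 2 arrays over the probe sets above the filter on signal (188) ran from 0.948 to 0.967. LacZ arrays had mean correlations of 0.952 to 0.958 with their own group and of 0.953 to 0.965 with the GPI-PLD arrays. Each GPI-PLD array had a higher mean correlation with its own group (0.961 to 0.965) than with the LacZ arrays (0.956 to 0.960). GAPDH 3' to 5' signal ratios were 0.864 to 0.952 in LacZ and 0.891 to 1.001 in GPI-PLD arrays, and those of ACTB were 1.20 to 1.54 and 1.13 to 1.65. Hepatocyte and hepatoma markers were bright in both groups, led by ALB (mean 83643 in LacZ, 86497 in GPI-PLD), APOA2 (75977, 74460), AFP (73002, 72752) and APOH (67104, 68283). Their summed signal was 571905 to 640744 in LacZ and 598718 to 659730 in GPI-PLD arrays. Of the other cell type markers, 1 of 10 endothelial, 5 of 12 immune, 8 of 14 fibroblast and stellate and 6 of 8 cholangiocyte genes on the array passed the filter. The sums of these lists overlapped between the viruses, at 683 to 1131 and 604 to 1266 for endothelial, 7477 to 13728 and 9913 to 12598 for immune, 5232 to 5904 and 4678 to 5870 for fibroblast, and 40255 to 43555 and 41174 to 43051 for cholangiocyte markers (LacZ, then GPI-PLD). The brightest were PECAM1 (279 and 164), LYZ (8673 and 8742), ACTA2 (2541 and 2662) and SPP1 (16408 and 16070). PTPRC, the pan-leukocyte antigen, read 138 and 103, below the filter. Other immune genes had means above 188 in both groups. These were CD3E (487 and 373), CD2 (402 and 317), CD3D (328 and 241), MS4A1 (287 and 215) and ITGAM (339 and 374).

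The GPLD1 transcript, which encodes human GPI-PLD, was measured by 5 probe sets and was not higher at its brighter ones in the cells given the GPI-PLD virus. The brightest set read 281, 292, 261 and 207 in the LacZ arrays and 341, 224, 127 and 445 in the GPI-PLD arrays. The GPI-PLD arrays held both the highest and the lowest value of that set, and the groups overlapped (log2 difference 0.02 ± 0.32, standard error). The next set read 316, 380, 162 and 370 in LacZ and 318, 280, 217 and 181 in GPI-PLD arrays, a log2 difference of -0.22 ± 0.30. Upper ends of the 95% intervals of the fold change in these sets were 1.61 and 1.32. The third set, with means of 45.4 in LacZ and 80.7 in GPI-PLD arrays, differed by 0.37 ± 0.44. The fourth set, with means of 38.4 and 28.7, differed by -0.08 ± 0.38. The dimmest set read 20.8, 17.8, 46.0 and 15.7 in LacZ and 77.6, 41.3, 54.5 and 113 in GPI-PLD arrays, with an overlap at 46.0 and 41.3. Its log2 difference was 0.60 ± 0.22, with an adjusted p of 0.9997 by limma over 22215 probe sets. All 4 GPI-PLD values of that set lay below the signal of 188 that served as the filter. The part of GPLD1 that the virus carried is not stated in the labels, and whether these probe sets read a viral transcript was not tested.

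**Figure D1:**
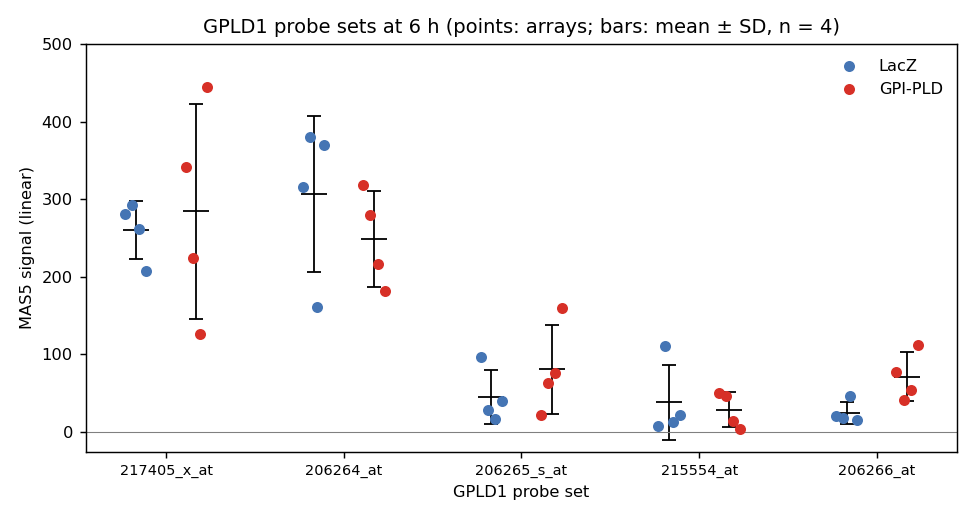
MAS5 signal (y axis, linear) of the 5 GPLD1 probe sets (x axis, ordered by mean signal) in the 4 LacZ (blue) and 4 GPI-PLD (red) arrays at 6 h, with mean ± SD. In every set the groups overlap, and the GPI-PLD arrays of the brightest set run from 127 to 445.

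Across the genome no single gene of HepG2 cells was called different between the viruses at 6 h. Of 8102 genes tested, 4106 had a higher mean with the GPI-PLD virus (50.7%) and 3996 a lower one, with a median log2 difference of 0.0035. The arrays were scaled to a common mean, so this balance cannot show a shift shared by most genes. No gene passed an adjusted p of 0.05 in limma, which is 0% in each direction, and the smallest adjusted p was 0.328. At an unadjusted p under 0.05 stood 217 genes higher (2.68%) and 159 lower (1.96%). The 4 arrays of each virus did not overlap in 119 genes higher (1.47%) and 126 lower (1.56%). Differences of at least 2-fold on the log2(signal + 63) scale were found in 15 genes higher and 15 lower, and all 30 had a mean signal below the median of the tested genes (913). In the brightest quartile of genes, with a mean signal above 2125, 0 of 2026 reached 2-fold. The typical 95% interval reached 1.16-fold to each side in that quartile, against 1.65-fold in the dimmest quartile and 1.28-fold over all tested genes. Where a gene had a second probe set above the filter, that set differed in the same direction in 1372 of 2465 genes (55.7%), and in 62 of 95 genes (65.3%) among those at an unadjusted p under 0.05. No difference named below passed the adjusted test, so values are given as measured levels and differences.

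**Figure D2:**
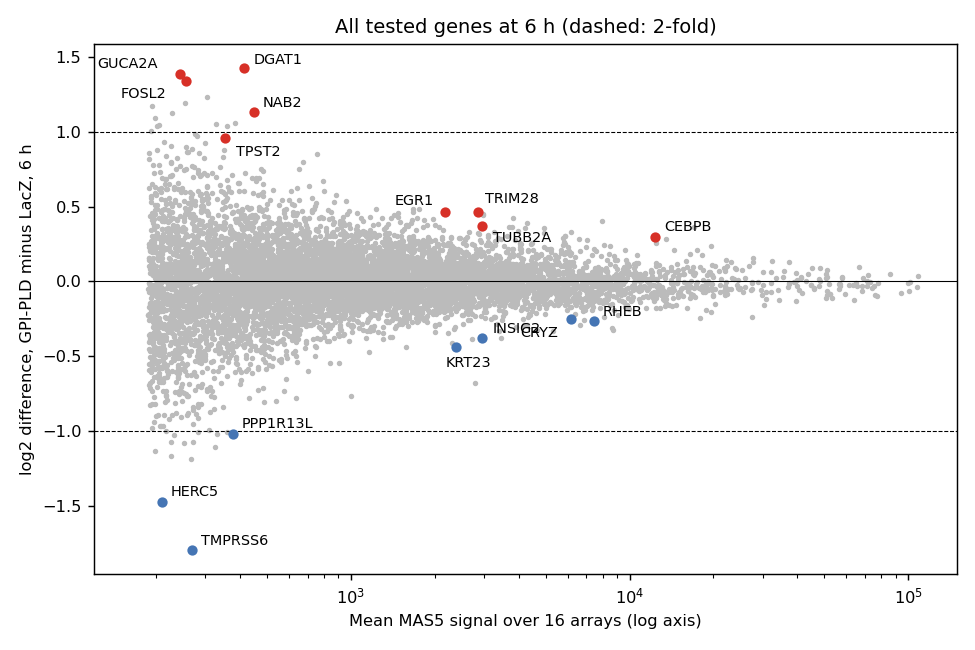
Difference between GPI-PLD and LacZ cells at 6 h (y axis, log2(signal + 63), 4 arrays per group) against mean signal over 16 arrays (x axis, log scale) for the 8102 tested genes, with some named genes in red (higher) or blue (lower). Points beyond the dashed 2-fold lines lie at the dim end, where intervals are widest.

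Among genes higher in GPI-PLD cells, the dim transcripts DGAT1, GUCA2A and FOSL2 had the smallest p. DGAT1 encodes the enzyme that joins diacylglycerol and an acyl group into triglyceride. Its signal was 242, 83.1, 373 and 147 in the LacZ arrays and 584, 584, 774 and 541 in the GPI-PLD arrays. The groups did not overlap, and LacZ arrays differed among themselves by more than GPI-PLD arrays did (log2 difference 1.42 ± 0.30, adjusted p 0.328). GUCA2A encodes guanylin, an intestinal peptide that activates guanylate cyclase C. It read 98.7, 107, 82.4 and 106 in LacZ and 382, 518, 350 and 234 in GPI-PLD arrays, so that all 4 LacZ arrays lay below the filter and all 4 GPI-PLD arrays above it (1.39 ± 0.29, adjusted p 0.328). FOSL2, an AP-1 transcription factor subunit, read 118, 144, 124 and 65.8 in LacZ and 283, 348, 491 and 401 in GPI-PLD arrays. Its groups did not overlap either (1.34 ± 0.29, adjusted p 0.328), and a further probe set above the filter differed by 0.73 ± 0.30, while a dim set stood at -0.05 ± 0.37. Limma without a trend or robust prior gave GUCA2A and FOSL2 an adjusted p of 0.0318, the only 2 calls in any of 18 alternative settings. Adjusted p values over the alternatives ran from 0.0318 to 0.998 for both genes and from 0.0851 to 0.998 for DGAT1.

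The stretches of 250 bases before the start sites of FOSL2, GUCA2A and TUBB2A are shown. FOSL2 and GUCA2A were called at 6 h in 1 of 18 alternative settings, though not at the settings used here. TUBB2A gave the only call between the times. The stretches come from RefSeq (GRCh38.p14) and are written along the gene, with matches on either strand to the motifs searched in capitals. FOSL2 lies on chromosome 2 (window chr2:28392608-28392857, plus strand), GUCA2A on chromosome 1 (chr1:42164746-42164995, minus strand) and TUBB2A on chromosome 6 (chr6:3157545-3157794, minus strand).
FOSL2: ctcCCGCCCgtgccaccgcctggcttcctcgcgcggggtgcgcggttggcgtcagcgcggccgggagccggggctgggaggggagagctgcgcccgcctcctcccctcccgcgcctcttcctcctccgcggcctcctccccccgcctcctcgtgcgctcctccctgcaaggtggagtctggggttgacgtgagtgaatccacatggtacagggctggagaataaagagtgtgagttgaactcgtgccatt
GUCA2A: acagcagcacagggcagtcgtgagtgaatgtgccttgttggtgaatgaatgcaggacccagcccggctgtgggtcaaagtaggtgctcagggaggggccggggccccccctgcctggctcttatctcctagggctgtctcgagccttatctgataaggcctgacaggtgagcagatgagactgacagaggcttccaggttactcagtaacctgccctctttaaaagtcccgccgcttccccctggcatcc
TUBB2A: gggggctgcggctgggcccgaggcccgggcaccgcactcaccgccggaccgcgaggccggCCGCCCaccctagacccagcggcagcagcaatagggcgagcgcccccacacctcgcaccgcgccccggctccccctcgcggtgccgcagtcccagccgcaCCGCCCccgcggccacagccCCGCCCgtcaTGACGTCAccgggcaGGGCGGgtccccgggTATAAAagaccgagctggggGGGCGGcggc
The motifs were the AP-1 site TGACTCA, the cyclic AMP response element TGACGTCA, the CArG box of serum response, the EGR site GCGTGGGCG, the E-box CACGTG, the sterol response site TCACCCCAC, the CCAAT box, the TATA box TATAAA and the GC box GGGCGG. The FOSL2 window held 1 match, a GC box that begins 247 bases before the start, and the GUCA2A window held 0. TUBB2A held a cyclic AMP response element 60 bases and a TATA box 30 bases before the start, with 5 GC boxes. These were found in 1.77%, 11.1% and 42.3% of 27305 RefSeq windows of that length. Among tested genes with a window the shares were 3.03%, 5.64% and 66.5%. Among immediate early genes that were tested and had a window, 3 of 21 held the cyclic AMP response element and 0 of 21 the AP-1 site, which 3.03% and 2.62% of tested genes with a window held. The shorter TGACG was counted but not capitalised, and it was in 10 of 21 of these windows and in 30.6% of tested genes with a window. A match describes the letters and not binding.

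ANPEP, the membrane aminopeptidase N, read 1562, 1337, 1184 and 1076 in LacZ and 1771, 1864, 1760 and 1856 in GPI-PLD arrays (0.48 ± 0.12). Its GPI-PLD values were tightly grouped and lay above every LacZ value. TRIM28, a corepressor that recruits heterochromatin factors, read 2469, 2589, 2571 and 2360 against 3118, 3933, 3485 and 3345 (0.46 ± 0.11), again without overlap. TPST2, which sulfates tyrosines of secreted proteins, read 199, 311.5, 234 and 294 against 718, 584, 433 and 525 (0.96 ± 0.23). EPHX1, the microsomal epoxide hydrolase, read 1136, 1382, 1532 and 1128 against 1792, 2003, 1640 and 1780 (0.47 ± 0.13). SLC6A8, the creatine transporter, read 499, 742, 667 and 525 against 1280, 829, 928 and 990 (0.67 ± 0.19), and its other sets above the filter stood at 0.85 ± 0.60 and 0.21 ± 0.26. None of these overlapped between the viruses. In NAB2, a corepressor of EGR factors, LacZ arrays split into 266 and 282 against 77.8 and 49.8, and the GPI-PLD arrays (410, 263, 624 and 329) overlapped the upper of them (1.13 ± 0.31). A dimmer NAB2 set, below the filter, stood at -0.03 ± 0.39. NPIPA1 (0.46 ± 0.12) and TUBB2A (0.37 ± 0.11) did not overlap. CEBPB, a stress and acute phase transcription factor, was among the brightest (LacZ 6290, 5389, 6112 and 5420; GPI-PLD 6216, 7410, 8331 and 6755; 0.30 ± 0.08) and overlapped through 1 array of each group.

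**Figure D3:**
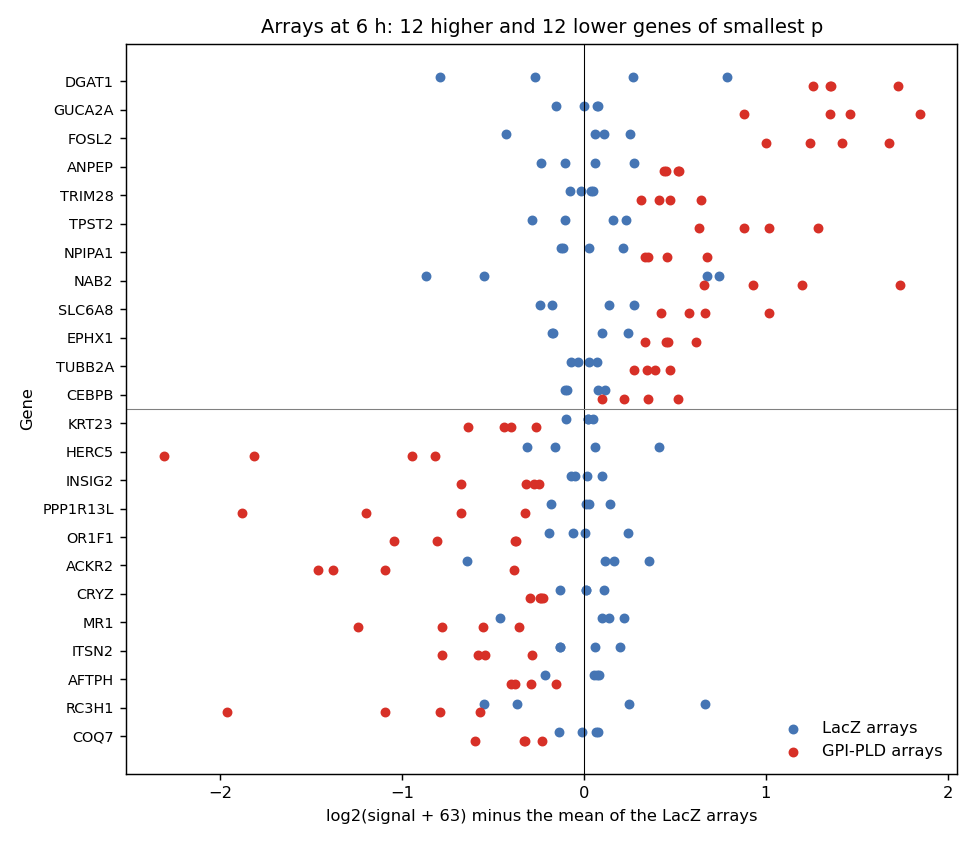
Each array at 6 h as log2(signal + 63) minus the mean of the LacZ arrays (x axis) for the 12 higher and 12 lower genes of smallest p (y axis), LacZ in blue and GPI-PLD in red. The genes were chosen for this difference. The groups do not overlap in 10 of the higher and 9 of the lower genes.

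Among genes lower in GPI-PLD cells, KRT23, HERC5 and INSIG2 had the smallest p. KRT23, a type I keratin, read 3017, 2962, 2958 and 2722 in LacZ and 1851, 2415, 2188 and 2129 in GPI-PLD arrays. No GPI-PLD array reached the lowest LacZ array (log2 difference -0.44 ± 0.11, adjusted p 0.570). HERC5, the ligase that attaches the interferon-induced modifier ISG15, read 324, 431, 236 and 270 against 130, 42.6, 12.1 and 148. All of its GPI-PLD values lay below the filter, 2 of them under the pseudocount of 63, and its log2 difference of -1.47 ± 0.38 ranged from -2.45 to -0.77 over the alternatives. INSIG2, which retains the sterol sensor complex in the endoplasmic reticulum, read 3786, 3966, 3731 and 4201 against 3294, 3224, 2431 and 3132 (-0.38 ± 0.10). PPP1R13L, an inhibitor of p53, read 562, 555, 478 and 615 against 322, 204, 428 and 104 (-1.02 ± 0.29). Without overlap stood also CRYZ, a quinone reductase (7548, 6817, 7541 and 8086 against 6330, 6389, 6358 and 6096; -0.25 ± 0.07). COQ7, an enzyme of ubiquinone synthesis, read 1683, 1581, 1439 and 1669 against 1257, 1347, 1028 and 1255 (-0.37 ± 0.11), though its other sets above the filter gave 0.11 ± 0.34 and -0.13 ± 0.16. ITSN2, an endocytic scaffold, differed by -0.55 ± 0.16 and by 0.22 ± 0.17 at another set, the opposite direction. MR1, which presents microbial metabolites to T cells (-0.73 ± 0.22), also had sets at 0.11 ± 0.29 and -0.27 ± 0.29. OR1F1, an olfactory receptor gene (-0.65 ± 0.19), and RC3H1, an mRNA decay factor (-1.11 ± 0.34), did not overlap. ACKR2, a chemokine scavenger (-1.08 ± 0.31), and AFTPH, a vesicle trafficking factor (-0.31 ± 0.09), overlapped. Over the 24 genes of smallest p, 5 had 8 further probe sets above the filter, and 5 of these 8 differed in the same direction.

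The largest differences without overlap were in dim genes. TMPRSS6, the liver protease that restrains hepcidin, read 539, 785, 433 and 420 in LacZ and 147, 388, 35.4 and 27.9 in GPI-PLD arrays, the largest difference of all tested genes (-1.79 ± 0.55). Its GPI-PLD arrays were widely spread, and the highest of them stood just under the lowest LacZ array. NUP58, a nuclear pore protein, read 182, 205, 345 and 285 against 84.2, 175, 131 and 7.1 (-1.07 ± 0.40). ERN2, the gut form of the stress sensor IRE1, read 177, 119, 116 and 230 against 373, 299.9, 564 and 636 (1.23 ± 0.38). In the brightest quartile the differences were small and more precise: PCCB, a subunit of propionyl-CoA carboxylase, was higher without overlap (3404, 3686, 3699 and 4535 against 4828, 4600, 5431 and 4778; 0.36 ± 0.11). RHEB, the GTPase that activates mTORC1, was lower without overlap (7454, 8062, 8591 and 8656 against 7408, 6538, 6379 and 6890; -0.27 ± 0.08), and its other sets above the filter stood at -0.05 ± 0.12 and -0.20 ± 0.20.

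Genes of fatty acid and triglyceride synthesis gave the highest median of 26 pathway lists, 0.13 against 0.0035 over all genes, with 15 of 20 tested members higher and 5 lower. None passed the adjusted test, 2 of the 20 stood at an unadjusted p under 0.05 in the higher direction (2.68% of all genes), and 1, DGAT1, did not overlap (1.47%). The list mean, taken as the deviation of each gene from its 6 h mean, was 0.00, -0.16, -0.05 and -0.14 in LacZ and 0.06, 0.09, 0.11 and 0.10 in GPI-PLD arrays. It was the 1 list of 26 whose arrays did not overlap, and LacZ replicate 1 lay nearest to the GPI-PLD arrays. Without DGAT1 the list means were 0.02, -0.09, -0.06 and -0.10 in LacZ and 0.03, 0.06, 0.06 and 0.07 in GPI-PLD arrays, with a median of 0.13. From this pathway ACACA, which makes malonyl-CoA, read 1808, 2349, 1783 and 1777 against 2809, 3030, 1973 and 2256 (0.36 ± 0.15). FASN, the fatty acid synthase, read 4770, 6304, 7030 and 4561 against 6285, 6638, 6894 and 7031 (0.26 ± 0.14), with an overlap that came from 2 high LacZ arrays. The mean over its probe sets stood at -0.11 and took in a set below the filter (mean signal 51). PNPLA3, a lipid droplet acyl hydrolase, read 751, 252, 576 and 396 against 602, 508, 654 and 754 (0.39 ± 0.28). Elsewhere in the pathway, the citrate lyase ACLY stood at 0.10 ± 0.07, the desaturase SCD at 0.06 ± 0.08 and the elongase ELOVL6 at 0.13 ± 0.12. The acyltransferase AGPAT1 stood at 0.13 ± 0.11 and the phosphatidic acid phosphatase LPIN1 at -0.12 ± 0.12. The regulator SREBF1 stood at 0.38 ± 0.29. These 6 genes were picked by their place in the pathway after their values were seen. The list was chosen with earlier results of these arrays known, so its direction is no independent evidence.

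Other lipid lists stood closer to the median of all genes. Lipid droplet and lipolysis genes had 2 of 9 tested members higher (median -0.06), with CIDEB, which supports lipidation of very low density lipoprotein, at 1861, 1910, 1795 and 1361 in LacZ and 2158, 2710, 2236 and 1972 in GPI-PLD arrays (0.38 ± 0.14), the 1 of 9 members without overlap (1.47% of all genes). LIPA, the lysosomal acid lipase (-0.15 ± 0.08), PLIN2, a droplet coat protein (-0.10 ± 0.08, and -0.89 ± 0.47 at a dimmer set), and HILPDA, a lipase inhibitor (0.28 ± 0.21), overlapped. Lipoprotein assembly genes had 10 of 17 higher (median 0.03) and 0 of 17 at an unadjusted p under 0.05 in either direction (2.68% higher and 1.96% lower over all genes). APOC3, an inhibitor of lipoprotein lipase, differed by 0.23 ± 0.12, APOA1, the main protein of high-density lipoprotein, by 0.16 ± 0.11, PON3, a lactonase, by -0.20 ± 0.12 and ANGPTL8 by -0.41 ± 0.24. Among 11 lipoprotein receptor and export genes (median -0.02), MYLIP, which degrades the LDL receptor, read 240.4, 443, 524 and 395 against 126, 138, 215 and 283 (-0.87 ± 0.28), and SCARB1, the receptor for high-density lipoprotein, differed by 0.18 ± 0.10. Cholesterol synthesis genes had 14 of 19 higher (median 0.04). INSIG2 stood lowest in that list, and DHCR7, the last enzyme of the pathway, differed by 0.22 ± 0.10. The sterol reductase TM7SF2 stood at 0.19 ± 0.14 and the thiolase ACAT2 at 0.08 ± 0.07. Fatty acid oxidation genes had 8 of 23 higher (median -0.06), with DECR1, which reduces unsaturated acyl-CoA, at -0.32 ± 0.12 and ETFA, an electron carrier, at -0.16 ± 0.07.

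Genes of the GPI anchor itself were balanced. Of 25 tested synthesis and attachment genes 13 were higher and 12 lower (median 0.02), and 0 stood at an unadjusted p under 0.05, against 2.68% higher and 1.96% lower of all genes. PGAP6, an anchor phospholipase, read 677, 795, 904 and 834 against 928, 1119, 1139 and 962, the 1 of 25 members without overlap (0.35 ± 0.18), against 1.47% of all genes. PIGC, of the first synthetic step, differed by -0.37 ± 0.22 and GPAA1, of the transamidase that attaches the anchor, by 0.16 ± 0.13. PIGO, an ethanolamine phosphate transferase, stood at -0.78 ± 0.48, where GPI-PLD replicate 1 read 45.1 and the other 3 arrays 555 to 783, a dimmer set gave 0.36 ± 0.36, and the mean over its probe sets stood at 0.10. Of 26 tested GPI-anchored proteins, 13 were higher and 13 lower (median -0.01). RECK, an inhibitor of matrix proteases, read 999.7, 1027, 782 and 1384 against 1259, 459, 641 and 584, with GPI-PLD replicate 1 inside the LacZ range (-0.54 ± 0.22). CD24 (-0.18 ± 0.12, and from -0.84 ± 0.40 to 0.12 ± 0.23 at 5 other sets), the glypican GPC1 (0.53 ± 0.40) and the adhesion receptor CD48 (-0.38 ± 0.29) overlapped. The arrays measure transcripts, so release of these proteins from the surface was not measured.

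The list of phosphatidic acid, diacylglycerol and inositol lipid enzymes was as balanced, with 13 of 25 higher and a median of 0.0029. At an unadjusted p under 0.05 stood 0 of them (2.68% higher and 1.96% lower of all genes). The list also held enzymes of choline, ethanolamine and serine phospholipids, so it is not a readout of phosphatidic acid alone. CHKA, the choline kinase, was the 1 of 25 members without overlap (1.47% of all genes; 1652, 1926, 1864 and 1562 against 1975, 1980, 1928 and 2147; 0.19 ± 0.12), though its second set stood at -0.04 ± 0.13. PLD3, a phospholipase D family member, differed by 0.55 ± 0.32, PCYT2, of phosphatidylethanolamine synthesis, by 0.23 ± 0.14 and PTDSS1, a phosphatidylserine synthase, by 0.15 ± 0.09. Of 10 tested protein kinase C family genes 6 were higher (median 0.04), with PRKCE at 0.60 ± 0.35 and PRKCH at -0.56 ± 0.42. Immediate early genes, which growth factor and diacylglycerol signals switch on, had 20 of 30 tested members higher (median 0.06). At an unadjusted p under 0.05 stood 4 higher and 0 lower (2.68% and 1.96% of all genes), and 3 higher and 1 lower did not overlap (1.47% and 1.56%). The 4 were FOSL2, NAB2, EGR1 and JUN. EGR1, a zinc finger factor, read 1676, 1272, 1090 and 1404 in LacZ and 1729, 1888, 2000 and 1895 in GPI-PLD arrays (0.46 ± 0.14). Its other probe set differed in the opposite direction (-0.33 ± 0.18). JUN, the AP-1 partner, read 1353, 766, 814 and 1231 against 1300, 1198, 1552 and 1306 (0.38 ± 0.14), and its other sets above the filter stood at 0.12 ± 0.29 and -0.17 ± 0.21.

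**Figure D4:**
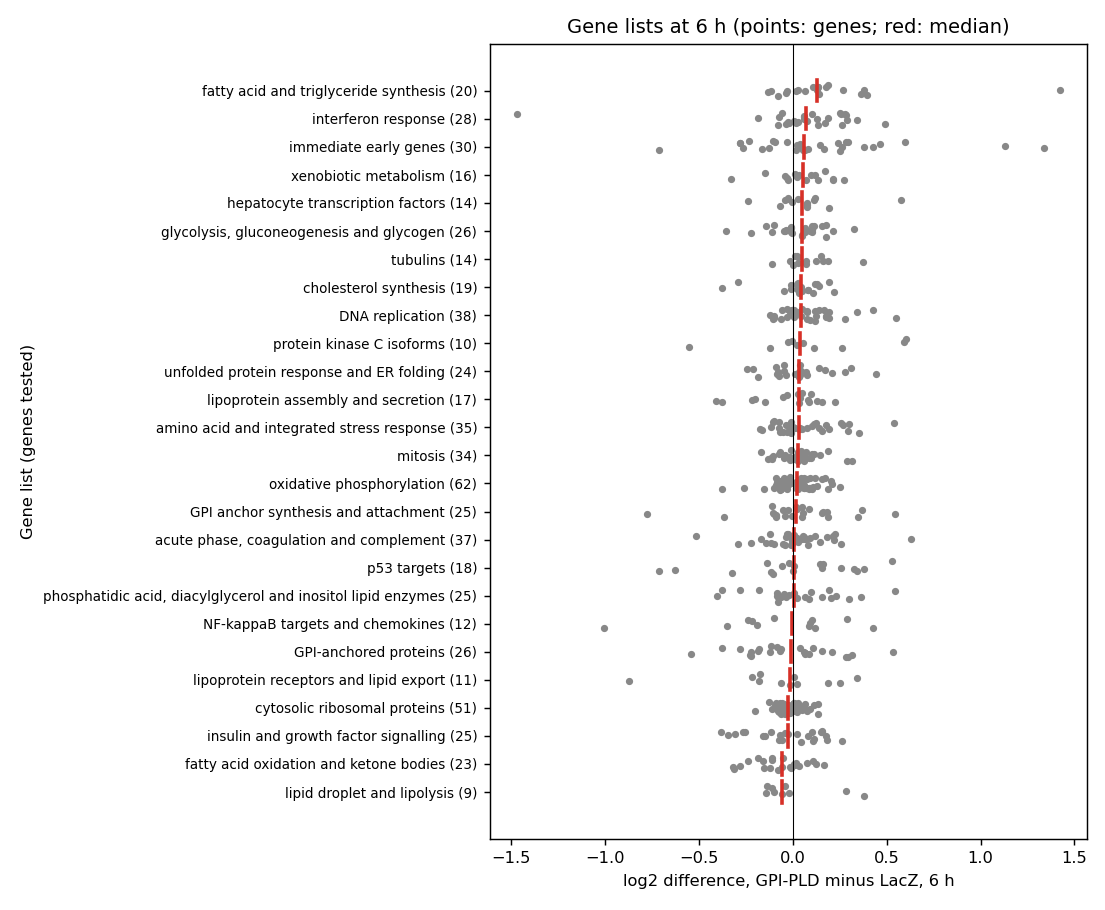
Log2 difference between GPI-PLD and LacZ cells at 6 h (x axis) for the tested genes (points) of each of the 26 pathway lists (y axis, number tested in parentheses), with the median in red. List medians run from -0.06 to 0.13, close to 0.0035 over all genes.

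Stress and signalling lists had medians of at most 0.07. Amino acid and integrated stress response genes had 19 of 35 higher (median 0.03), with 5 higher and 0 lower at an unadjusted p under 0.05 (2.68% and 1.96% of all genes). The 5 were CEBPB, TRIB3, PPP1R15A, SLC7A11 and DDIT4, of which the last 3 are named after their values were seen. TRIB3, a pseudokinase that dampens AKT and ATF4, read 6686, 8101, 8338 and 6439 against 8818, 8437, 8723 and 9184 without overlap (0.26 ± 0.08). In the unfolded protein response list (14 of 24 higher, median 0.03), OS9, a lectin of glycoprotein disposal, did not overlap (3051, 3126, 3271 and 2727 against 3625, 3583, 3649 and 3955; 0.28 ± 0.09), and PDIA6, a disulfide isomerase, stood at -0.25 ± 0.11. Its other sets gave -0.10 ± 0.07, 0.03 ± 0.08 and -0.04 ± 0.06. Interferon response genes had 20 of 28 higher (median 0.07), HERC5 being the 1 of 28 at an unadjusted p under 0.05 (1.96% lower over all genes), and OAS3, an antiviral synthetase, stood at 0.28 ± 0.17. In the list of NF-kappaB targets and chemokines (6 of 12 higher), RELA, a subunit of NF-kappaB, read 1268, 1380, 1222 and 1293 against 1856, 1894, 1918 and 1399.8 (0.43 ± 0.12), while the cytokine gene IL1B read 422, 347, 437 and 686 against 141, 291, 146 and 238 (-1.01 ± 0.38). Neither overlapped, which is 1 of 12 members in each direction (1.47% of all genes higher and 1.56% lower). The lowest GPI-PLD value of RELA stood just above its highest LacZ value, and a second RELA set stood at 0.05 ± 0.26. Of 18 p53 targets 10 were higher, with the cell cycle inhibitor CDKN1A at 0.34 ± 0.14 and the apoptosis gene PMAIP1 at -0.72 ± 0.28. A dimmer PMAIP1 set, below the filter, stood at 0.65 ± 0.44, the opposite direction. Of 25 insulin and growth factor genes 12 were higher, and GRB10, an adaptor that inhibits the insulin receptor, stood at -0.39 ± 0.18, with other sets at -0.13 ± 0.20 and 0.10 ± 0.25.

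Medians of the lists of general cell and liver function ran from -0.03 to 0.05. Oxidative phosphorylation genes had 35 of 62 higher (median 0.02), with the ATP synthase genes ATP5MC2 at 0.25 ± 0.09 and ATP5MC1 at -0.38 ± 0.14. Cytosolic ribosomal protein genes had 17 of 51 higher and 34 lower (median -0.03), with RPL35A at -0.20 ± 0.09 (0.14 for the mean over its probe sets) and RPL19 at -0.13 ± 0.06. The other RPL35A sets lay below the filter. Mitosis genes had 20 of 34 higher (median 0.02), with the phosphatases CDC25B at 0.29 ± 0.13 and CDC25C at 0.31 ± 0.15. DNA replication genes had 25 of 38 higher (median 0.04), with CCNE1, the G1/S cyclin, at 0.43 ± 0.17 and MCM7, a helicase subunit, at 0.27 ± 0.15. Tubulins had 11 of 14 higher (median 0.05), with TUBB4B at 0.19 ± 0.09. Acute phase, coagulation and complement genes had 19 of 37 higher (median 0.0055), with the coagulation factor F12 at 0.63 ± 0.29 and the acute phase protein gene ORM1 at 0.21 ± 0.11. Hepatocyte transcription factors had 8 of 14 higher (median 0.05), with GATA4 at 0.58 ± 0.26 and RXRA, the retinoid X receptor, at 0.19 ± 0.18. Xenobiotic metabolism genes had 11 of 16 higher (median 0.05), with SULT2A1, a bile acid sulfotransferase, at 0.21 ± 0.11 and the dioxin receptor AHR at -0.33 ± 0.20. Glycolysis and glucose genes had 14 of 26 higher (median 0.05), with the pyruvate kinase gene PKM at 0.33 ± 0.14 (-0.32 ± 0.36 at its dimmer set) and the isomerase gene GPI at 0.15 ± 0.11.

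The arrays at 12 h share none with those at 6 h. Of the 24 genes of smallest p at 6 h, 7 had the same direction at 12 h, 2 of the 12 higher and 5 of the 12 lower, against 44.7% of all tested genes. DGAT1 stood at -0.08 ± 0.30 at 12 h, GUCA2A at -0.32 ± 0.29, FOSL2 at 0.06 ± 0.29 and KRT23 at 0.13 ± 0.11. DGAT1 signal in LacZ cells averaged 211 ± 126 (SD, n = 4) at 6 h and 516 ± 133 at 12 h, against 621 ± 104 and 499.7 ± 203 with the phospholipase virus. GUCA2A averaged 98.7 ± 11.6 and 352 ± 89.1 in LacZ cells at these times, against 371 ± 116 and 266 ± 51.5. FOSL2 averaged 113 ± 33.3 and then 301 ± 49.4 in LacZ cells, against 381 ± 87.9 and 324 ± 98.9. In these 3 genes the LacZ group at 6 h was the low one of the 4 groups, and LacZ cells at 12 h lay near the GPI-PLD cells of 6 h. KRT23 averaged 2915 ± 131 and then 2191 ± 265 in LacZ cells, against 2146 ± 232 and 2395 ± 242, so that here the LacZ group at 6 h was the high one. TMPRSS6 was lower in GPI-PLD cells at 6 h and higher at 12 h (1.08 ± 0.55), with an adjusted p of 0.376 for the difference between the times. ACKR2 had the largest 12 h difference of the 24 genes, 0.59 ± 0.31, against -1.08 ± 0.31 at 6 h (adjusted p 0.376 for the difference between the times). NPIPA1 was nearly alike at both times (0.46 ± 0.12 and 0.38 ± 0.12). The test of the difference between the times passed for 1 of the 24, the beta tubulin gene TUBB2A, with LacZ signals of 2609, 2807, 2720 and 2537 and GPI-PLD signals of 3519, 3246, 3407 and 3725 at 6 h. Its log2 difference was 0.37 ± 0.11 at 6 h and -0.52 ± 0.11 at 12 h, a change of -0.89 ± 0.15 (limma adjusted p 0.0384). Its mean signal went from 2668 ± 119 to 3456 ± 301 with LacZ and from 3474 ± 201 to 2416.5 ± 420.3 with GPI-PLD. For the other 23 genes the difference between the times did not pass. The genes were chosen by their 6 h values. The fatty acid and triglyceride list had a median of 0.13 at 6 h and -0.07 at 12 h.

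**Figure D5:**
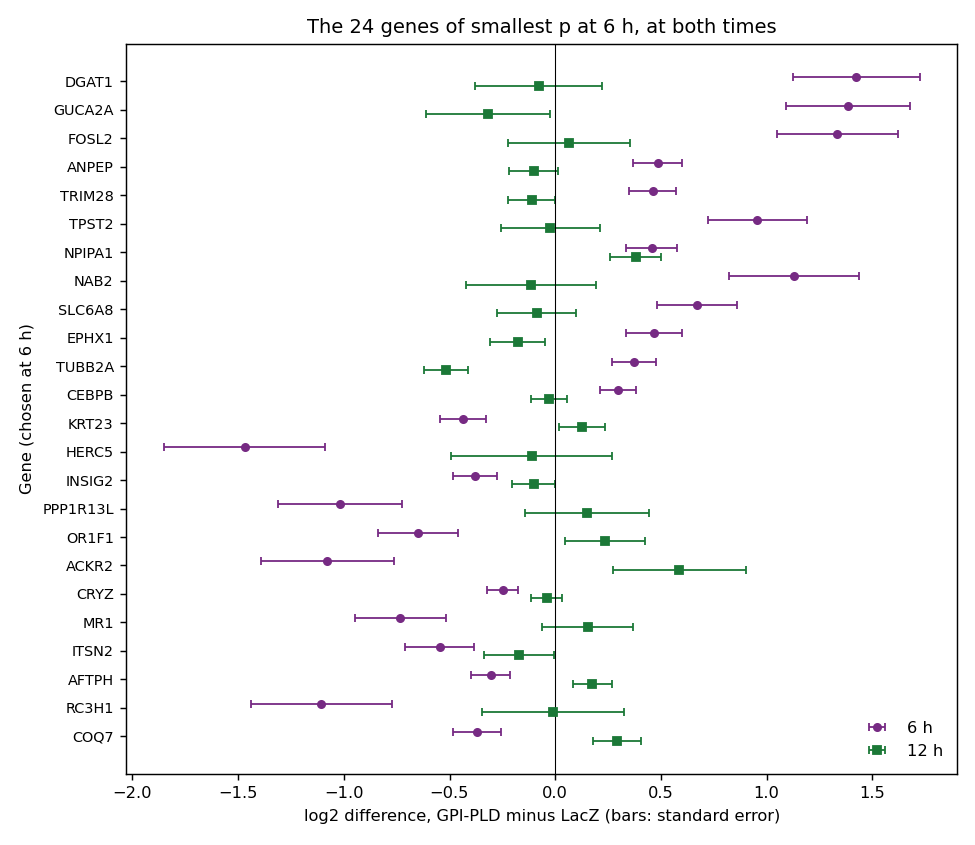
Log2 difference between GPI-PLD and LacZ cells (x axis, ± standard error, 4 arrays per group) at 6 h (purple) and 12 h (green) for the 24 genes of smallest p at 6 h (y axis). At 12 h the values run from -0.52 in TUBB2A to 0.59 in ACKR2, and NPIPA1 stands at 0.38.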

How the data were processed

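RNA of HepG2 cells was measured on Affymetrix arrays, 16 in all, of which 8 were compared at 6 h. The deposited values are MAS5 signals, a linear intensity, per the submitters' processing notes. Their trimmed mean, without the outer 2% at each end, was 1000.3 to 1000.4 in every array. The MAS5 version and scanner are not given in the sources used here. The order of deposit numbers the replicates, and the labels give no batches or replicate numbers. Separate cultures are not stated. The p-values then measure only the spread between these samples, which may be technical.

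Of 22283 probe sets, 68 were controls, 19065 had 1 gene symbol, 1043 several and 2107 none. Gene IDs of 19053 matched a current RefSeq table, which changed 0 symbols. Differences were taken on log2(signal + 63), the pseudocount being the signal at the 20th percentile. Array medians differed by a ratio of 1.24, under the limit of 1.5, so arrays were not rescaled. The probe set with the highest mean log2 value stood for each gene, and a filter at the 40th percentile of those means (signal 188) left 8102 of 11963 genes. A model of 4 groups of 4 arrays was fitted with limma 3.58.1 (R 4.3.3, statmod 1.5.0), with trend and robust on, 12 residual degrees of freedom and 10.5 prior ones at the median, with Benjamini-Hochberg adjusted p under 0.05 as the threshold. GPLD1 was fitted among all 22215 probe sets outside the controls. Tables were read with Python 3.11.15.

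Errors after log2 differences are standard errors. The number of arrays limits the precision. In simulated data for these 8102 genes, 67 genes were changed 1.5-fold, 67 were changed 2-fold and 66 were changed 3-fold. The 6 h test found 37.3%, 70.1% and 97.0% of them, and made 6 false calls. The adjusted threshold depends on how many genes are changed, so these shares hold for that number only. How many genes changed in the real arrays is not known. Lists were described without a set test. Named were GPLD1, the 12 genes higher and 12 lower of smallest p, the 5 and 5 largest without overlap, the 5 and 5 of smallest p in the brightest quartile, the 4 or 2 list members of smallest p, and any gene whose effect differed between the times. Of these, 1 gene is not reported here. For the cell type markers they were the 4 brightest hepatocyte genes, and the brightest of each other list. PTPRC, CD3E, CD2, CD3D, MS4A1 and ITGAM were added after their values were seen. The genes and lists were chosen with earlier results of these data known. Alternatives covered scaling, pseudocount, filter, probe sets, the prior, array weights, the arrays fitted and each 6 h array left out. They were run for the 6 h difference, and the test between the times was not repeated under them.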

Additional observations from a re-analysis of the deposited data

Results flagged for a closer look

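For TUBB2A the difference between the viruses at 12 h minus that at 6 h was -0.89 on the log2 scale, and it passed the interaction test in limma (adjusted p 0.0384). That test was not repeated under the alternative settings. In the 30 genes named for their p or size and the 5 GPLD1 probe sets, 70 groups of 4 arrays were searched for an array far from the others by Dixon's criterion, and 2 were found, where chance gives about 1 in 20. INSIG2 had a low value in GPI-PLD replicate 3 (signal 2431, gap over range 0.834). AFTPH had a low value in LacZ replicate 1 (signal 3606, gap over range 0.912).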

How the results depend on the processing

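Over 18 alternative settings the number of genes past the adjusted threshold at 6 h was 0 in all but the limma fit without trend and robust, which called 2 (GUCA2A and FOSL2, adjusted p 0.0318). Genes at an unadjusted p under 0.05 numbered 308 to 488 with single arrays left out and 261 to 546 over all settings, against 376. Of 1598 values of named genes under the alternatives 3 changed sign, all when the probe sets of a gene were averaged. This gave -0.11 for FASN, 0.10 for PIGO and 0.14 for RPL35A. The averages took in sets below the filter, with mean signals of 51 in FASN, 131 in PIGO and 147 and 66 in RPL35A. The brightest GPLD1 set ranged from -0.20 to 0.27 with single arrays left out and was negative without LacZ replicate 4 (-0.07), GPI-PLD replicate 1 (-0.09) or GPI-PLD replicate 4 (-0.20). The fourth GPLD1 set turned to 0.22 without LacZ replicate 2 and to 0.06 without GPI-PLD replicate 4, where its range was -0.21 to 0.22. The median of the fatty acid and triglyceride list ranged from 0.09 to 0.14, including the list without DGAT1, which was added after the data were seen. Medians of 3 lists moved by more than the spread between arrays in 12 cases (insulin and growth factor, NF-kappaB and p53 targets). The cause of these shifts was not tested. No paired analysis was possible because the labels give no replicate numbers. Dim genes had the widest intervals, 1.65-fold in the dimmest quartile.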
